A study of Homo sapiens with 24 samples.

Results

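The regions described here are Ago2 CLIP peaks in 3' untranslated regions (3'UTRs) that carry no match to a listed miRNA seed. They were taken from the authors' deposited peak table as the rows annotated as 3'UTR exon whose column of 7-nucleotide seed matches to the top 50 miRNA families is empty. There were 7537 such peaks of 24041 in all, or 31.4% of the table and 61.5% of its 12251 3'UTR peaks. They lay in 3054 of the 6088 genes of the table. The name fits the table only as far as its seed column goes: a peak without a listed seed can still match a miRNA outside those families, or match a listed one in a way that a 7-nucleotide seed does not cover.

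Human 293S cells, a line of human embryonic kidney origin, were treated with sodium arsenite at 1 mM during 30 min or left untreated. Ago2 was crosslinked to RNA and immunoprecipitated with an Ago2 antibody (CLIP), RNA-seq was made from the same samples, and a CLIP band called LO was sequenced to count Ago2-bound miRNAs. Each assay had 4 biological replicates with arsenite and 4 untreated, or 24 samples in 6 groups, all of 1 cell line. The table lists for each peak a log average across treatments and the log ratio (arsenite over untreated), which the authors had already combined over the replicates, so no spread between replicates, no test and no sequencing depth stands behind any peak value below. The log base and the normalizer are not stated, the zero of the log ratio depends on the authors' scaling, and the log ratios were not turned into folds. Of 24 marker genes of kidney, neuronal, liver, blood, muscle and fibroblast cells, 3 carried any peak, namely LHX1, GATA3 and NEFL, which says little, since peaks mark Ago2 binding and not expression. RNA-seq values were not analysed here.

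Argonaute proteins hold a miRNA and expose its bases 2 to 8, the seed, which pairs with a complementary site in a target RNA. Most sites that are known to lower mRNA stability or translation lie in 3'UTRs and begin with such a seed match, and Argonaute then recruits TNRC6 proteins, deadenylases and decapping enzymes. CLIP also recovers Argonaute on RNA with no perfect seed match, where bulged, shorter or 3'-supplemented pairing, or contact without a miRNA, can bring protein and RNA close enough to crosslink. Arsenite reacts with thiols, leads to phosphorylation of eIF2 alpha, stops most translation initiation and drives mRNAs into stress granules.

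The seeds that the members lack are those of the most abundant miRNAs on Ago2 in these cells. The sequences below are 1 member of each of the 10 most abundant families, the most abundant with a RefSeq entry (GRCh38.p14), in mature form, with the seed, bases 2 to 8, in capitals. A member peak carries no 7-nucleotide match to any of them, per the authors' seed column.
miR-30e-5p: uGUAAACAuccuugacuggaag
miR-196b-5p: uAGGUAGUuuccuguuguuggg
miR-19b-3p: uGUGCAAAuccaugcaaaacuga
miR-16-5p: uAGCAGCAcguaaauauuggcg
miR-374b-5p: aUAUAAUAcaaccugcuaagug
miR-17-5p: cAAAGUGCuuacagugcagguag
miR-27a-3p: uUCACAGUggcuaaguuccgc
miR-31-5p: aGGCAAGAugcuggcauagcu
miR-101-3p: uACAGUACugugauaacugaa
miR-222-3p: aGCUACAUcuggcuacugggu
A site for miR-17-5p would read GCACUUU in the mRNA and a site for miR-30e-5p UGUUUAC. The 5 most abundant miRNAs outside the 50 families are shown for contrast, since matches to their seeds are not recorded in the table and may be present in member peaks.
miR-218-5p: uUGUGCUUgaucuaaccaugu
miR-24-3p: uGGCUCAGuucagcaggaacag
miR-182-5p: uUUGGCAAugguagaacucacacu
miR-769-5p: uGAGACCUcuggguucugagcu
miR-126-5p: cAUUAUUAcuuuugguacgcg
The seed list covered nearly all of the miRNA on Ago2. In the authors' deposited miRNA table the 120 mature miRNAs of the 50 families that were listed there held 97.5% of the summed means with arsenite and 97.7% in untreated cells. The 880 other mature miRNAs held 2.51% with arsenite and 2.34% untreated. The most abundant of these, miR-218-5p, had an authors' mean of 11416, close to the 11540 of the least abundant listed family, miR-10. None of the 700 others with a RefSeq sequence shared bases 2 to 8 with a listed miRNA for which RefSeq held an entry (113 of 133). By DESeq in the authors' deposited table, 0 of 1213 miRNA entries had an adjusted p under 0.05, while an unadjusted p under 0.05 was listed for 3 of the 120 miRNAs and 16 of the 880. Since the list is of the top 50 families, its high share of the summed means was built in. The 61.5% of 3'UTR peaks that were members is a share of peaks, and the 2.51% outside the list a share of miRNA signal. These are unlike measures, and which miRNAs, if any, go with the members was not tested.

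How Ago2 signal at these peaks differed between arsenite-treated and untreated cells is the study's main question. Most members had more signal with arsenite: 5423 of 7537, or 72.0%, had a log ratio above 0, where 70.3% of all peaks did. Their median log ratio was 0.68, with quartiles of -0.11 and 1.45, beside a median of 0.65 over all peaks. A log ratio above 1 was listed for 2950 members (39.1%, and 39.1% of all peaks), and one below -1 for 516 (6.85%, and 7.43% of all peaks). The 95% interval over peaks was 70.9 to 73.0% for the share above 0 (Wilson) and 0.65 to 0.71 for the median (order statistics), both too narrow, since peaks of a gene share RNA and reads. The members thus sat at the level of the whole table, spread from -3.07 to 4.67 with an SD over peaks of 1.10.

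Set against the 3'UTR peaks that do carry a listed seed, the members had lower log ratios. Their median of 0.68 compared with 1.20 over 4714 seeded 3'UTR peaks, a difference of -0.52, and 72.0% of members lay above 0 beside 83.0% of seeded peaks. A log ratio below -1 was more frequent among members, at 6.85% beside 4.01%. The step grew with the number of families matched: the median was 0.68 with none, 1.15 with 1 family (3635 peaks), 1.36 with 2 (894 peaks) and 1.44 with 3 or more (185 peaks). Within the same genes the difference was smaller. Over 1569 genes with both kinds of 3'UTR peak, the gene's seedless median minus its seeded median had a median of -0.30, with quartiles of -0.96 and 0.36. Seedless peaks were lower in 980 of these genes and higher in 581.

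Among peaks without a listed seed, those in 3'UTRs had higher log ratios than those elsewhere in mRNAs. The member median of 0.68 compared with 0.45 over 6093 coding sequence (CDS) peaks and 0.24 over 1796 5'UTR peaks, with 72.0% of members above 0 beside 65.1% and 60.1%. Within 1306 genes that held both, members lay above seedless CDS peaks by a median of 0.22 and were higher in 758 genes. Within 619 genes they lay above seedless 5'UTR peaks by 0.45 and were higher in 410. CDS peaks with a listed seed had a median of 0.96, above the members. Within 790 genes, however, members differed from such seeded CDS peaks by a median of -0.11 only, and were lower in 422. The 373 5'UTR peaks with a listed seed had a median of 0.39, below the members and the seedless CDS peaks. The order of median log ratios thus ran from seeded 3'UTR peaks through seeded CDS peaks and members to seedless CDS, seeded 5'UTR and seedless 5'UTR peaks.

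**Figure D1:**
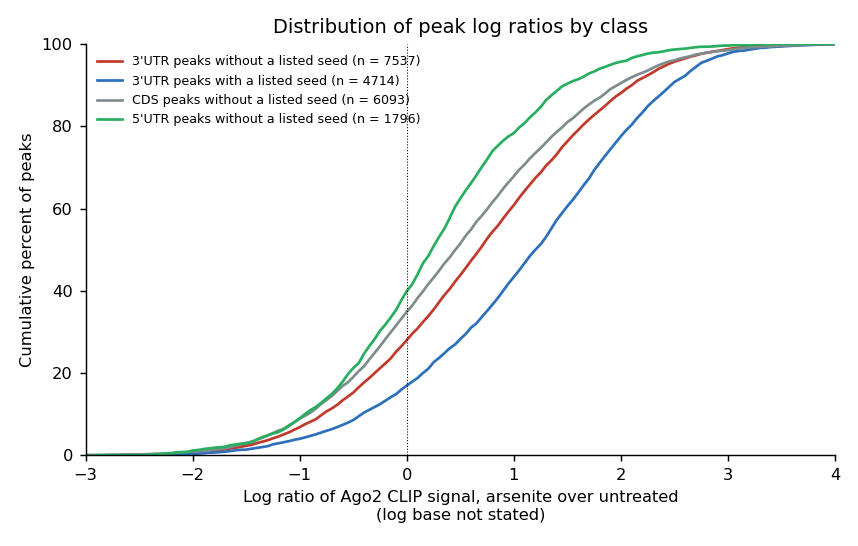
Cumulative percent of peaks (vertical axis) at or below each log ratio of arsenite over untreated Ago2 signal (horizontal axis, log base not stated), for 4 classes of peaks. The curve of the 7537 members runs between those of seeded 3'UTR peaks on its right (median 1.20) and of seedless CDS (0.45) and 5'UTR peaks (0.24) on its left.

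The seeded 3'UTR peaks were not of 1 kind, and part of them matched the members. With the families ranked by their summed means on Ago2, and each seeded peak placed by its most abundant matching family, the 2186 peaks of ranks 1 to 10 had a median of 1.42 and 90.0% above 0. The 1449 peaks of ranks 11 to 25 had a median of 1.10, and the 1079 peaks of ranks 26 to 50 had a median of 0.75 with 72.6% above 0, beside 0.68 and 72.0% for the members. Median peak lengths at ranks 1 to 10, 11 to 25 and 26 to 50 were 47, 51 and 55 nucleotides. A share of length in the order of these groups was not tested. Within 577 genes the difference of members from peaks of ranks 26 to 50 had a median of -0.08, and members were lower in 307. Within 956 genes the difference from peaks of ranks 1 to 10 had a median of -0.42, and members were lower in 623. Rank did not order every family. Of 44 families with at least 20 seeded 3'UTR peaks, each peak counted for every family that it matched, 33 had a median above that of the members and 11 a median below it. The medians below it included those of the families of miR-31-5p (0.37 over 83 peaks), which is number 8 by abundance, miR-28-5p and miR-708-5p (0.26 over 85), miR-324-3p (0.29 over 148), miR-34 and miR-449 (0.20 over 90) and miR-18a-3p (-0.06 over 94). At the top stood the families of miR-25 and miR-92 (1.70 over 319), miR-17 (1.70 over 550), miR-340-5p (1.62 over 55), miR-19 (1.61 over 433) and miR-30 (1.61 over 271), all at least 0.93 above the members. Over peaks that matched 1 family alone, miR-340-5p had only 0.87 over 26 peaks. The families of miR-92, miR-17, miR-19 and miR-30 then had 1.76, 1.71, 1.62 and 1.61. Counted so, more than 11 of the 44 families lay below the members, among them miR-186-3p (0.56 over 78). The abundance ranks were formed after the values had been seen.

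Short member peaks had higher log ratios than long ones. The member median was 1.27 at lengths up to 29 nucleotides (457 peaks), 0.90 at 30 to 39, 0.69 at 40 to 49, 0.48 at 50 to 59, 0.51 at 60 to 79 and 0.42 at 80 or more (683 peaks). Seeded 3'UTR peaks also had lower medians at greater length, 1.74 at lengths up to 29 and 0.52 at 80 or more. The difference of members from seeded peaks was -0.46 at lengths up to 29, widest at 40 to 49 (-0.75) and narrowest at 80 or more (-0.10). Spearman's rho between length and log ratio was -0.16 over the 7537 members and -0.32 over the seeded 3'UTR peaks, across peaks that share genes and libraries. Within genes the difference by length was small. In 557 genes with members both under 40 and of at least 60 nucleotides, the short ones were higher by a median of 0.12, in 303 of the genes, whereas medians over all short and all long members, in whatever gene, were 0.96 and 0.49. The log ratio varied less with signal strength (rho -0.06 with the log average): member medians lay between 0.47 and 0.86 in all 10 bins of log average, and the difference of members from seeded peaks ran from -0.66 to -0.27 over the bins. Members were weaker peaks, with a median log average of -5.27 beside -4.83 for seeded 3'UTR peaks, and of like length, 48 beside 50 nucleotides.

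**Figure D2:**
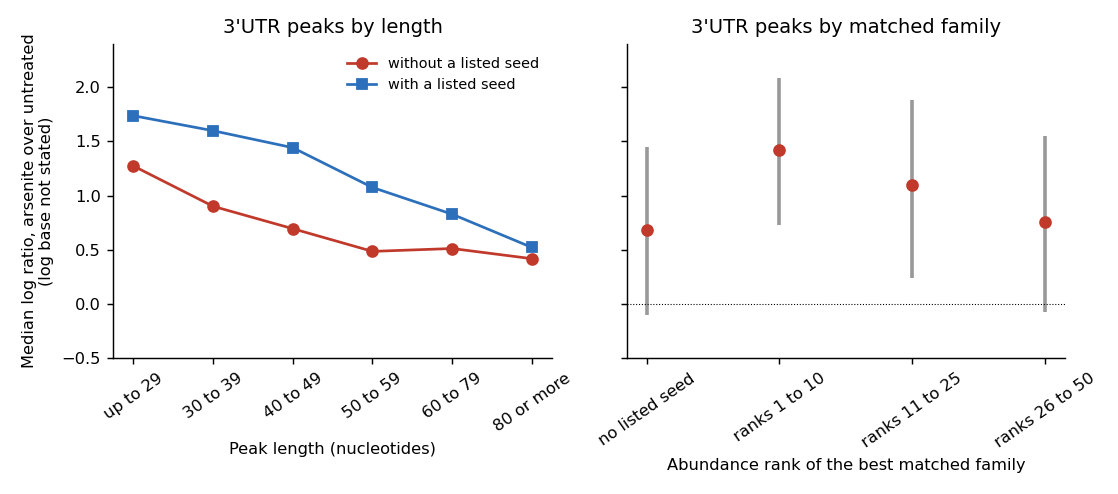
Left, the median log ratio of 3'UTR peaks (vertical axis, log base not stated) in 6 classes of peak length in nucleotides, for members (circles) and peaks with a listed seed (squares). Right, the median (points) and quartiles (bars) for members and for seeded 3'UTR peaks by the abundance rank of their most abundant family: members, at 0.68, and ranks 26 to 50, at 0.75, stand close together and ranks 1 to 10 stand at 1.42.

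Whether a gene had a seeded 3'UTR peak at all went with the values of its members. The 2375 members in 1485 genes with no seeded 3'UTR peak had a median of 0.85, and the 5162 members in 1569 genes with one had a median of 0.60. Those genes differ in other ways too: their members had a median log average of -4.99 where no seeded peak was listed and -5.41 where one was. The pattern was not particular to members. Seeded 3'UTR peaks had a median of 1.48 over 1478 peaks in genes with no member and 1.05 over 3236 peaks in genes with one. Pooled over the 1569 genes and not compared gene by gene, members near a seeded peak had slightly higher medians than members far from one. The median was 0.77 with centres up to 50 nucleotides apart (560 peaks), 0.68 over 50 to 100 (827), 0.63 over 100 to 200 (975) and 0.52 beyond 200 (2800). The nearest members were also shorter, with a median length of 38 nucleotides beside 52, 52 and 50 in the other groups. A share of length in this order was not tested. Of the members, 538 overlapped a seeded 3'UTR peak, and their median of 0.63 was not above that of other members. Medians differed little along the 3'UTR. Between the outermost 3'UTR peaks of 648 genes with at least 5 such peaks, cut into 3 equal stretches, members had medians of 0.45 in the 5' stretch, 0.52 in the middle and 0.57 in the 3' stretch. Within 516 genes the 3' stretch lay above the 5' stretch by a median of 0.08, and was higher in 275.

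Members of the same gene varied widely. More than 1 member was found in 1450 genes, and over their 5933 members 31.7% of the variance of log ratios lay between genes and the rest within them. In the 361 genes with at least 5 members, the median SD within a gene was 0.80 and the median range 2.38, beside an SD of 1.10 over all members. All members lay above 0 in 75 of these genes, all lay below 0 in 4, and 282 had members on both sides. Neighbours on a transcript were more alike than distant peaks. The median absolute difference between neighbouring members was 0.39 where they overlapped (940 pairs), 0.78 where they did not overlap but lay within 100 nucleotides (797 pairs) and 0.89 beyond that (2746 pairs), beside 1.07 between members of different genes. Overlapping peaks can share reads: 2233 members overlapped another peak, and 179 had exactly the same log average and log ratio as another peak of their gene.

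Gene medians of the members went with those of other peaks of the gene. Over 257 genes with at least 3 members and 3 seeded 3'UTR peaks, Spearman's rho between the 2 gene medians was 0.62 (Pearson's r 0.61), and over 257 genes with at least 3 members and 3 seedless CDS peaks it was 0.38 (r 0.37). With no minimum above 1 peak of each kind, rho was 0.37 over 1569 genes for seeded 3'UTR peaks and 0.33 over 1306 genes for seedless CDS peaks. At a minimum of 5 peaks of each kind, rho was 0.69 over 85 genes and 0.29 over 90 genes, in the same order. Such gene medians share the libraries and the normalization of the gene, so that a shift of the whole transcript enters both. The 538 members that overlap a seeded 3'UTR peak can also share reads with it. Seedless medians were below seeded medians in 160 of the 257 genes.

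**Figure D3:**
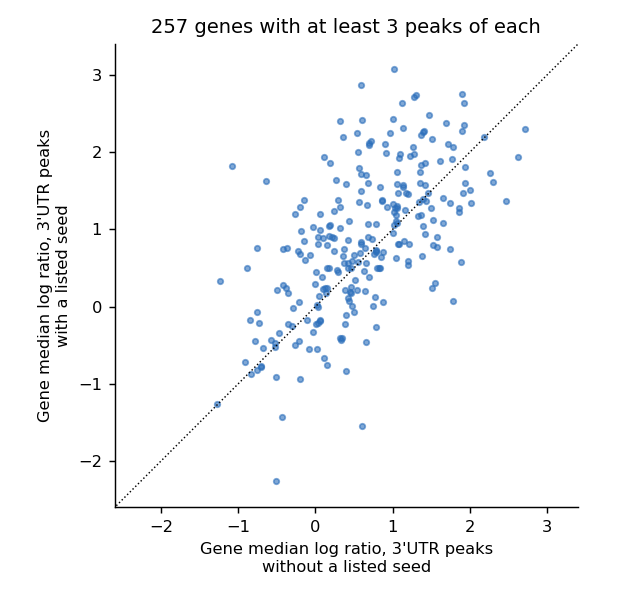
Each point is 1 of the 257 genes with at least 3 3'UTR peaks of each kind, with the median log ratio of its members on the horizontal axis and of its seeded peaks on the vertical axis (log base not stated). The dotted line marks equal values: 160 genes have the lower median for the members, and genes with a higher median of one kind tend to have a higher median of the other (rho 0.62).

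The genes with most members show how single transcripts behaved. ANKRD52, a regulatory subunit of the phosphatase PP6 that acts in the phosphorylation cycle of Ago2, had 39 members, from -1.90 to 2.14, with a median of -0.29 and 15 above 0. Its 22 seeded 3'UTR peaks had a median of -0.02, so both kinds of 3'UTR peak stood well below the table's 0.65. The 4 seedless CDS peaks of ANKRD52 had a median of 0.80. NAT8L, which makes N-acetylaspartate, had 29 members with a median of -0.92 and 5 above 0, and its 11 seeded peaks had a median of -0.72. From 5' to 3' its members reached -3.07 at the seventh and 1.07 at the twenty-fourth, so a low transcript still held single peaks with more signal in arsenite. LMNB2, which encodes lamin B2, had 29 members with a median of 1.20 and 25 above 0, although its 6 seedless CDS peaks had a median of 0.08. The translation factor gene PRRC2B had 36 members with a median of 0.45 and 26 above 0, beside 0.25 for its 11 seeded peaks. NUCKS1, a chromatin-associated phosphoprotein, had 34 members with a median of 0.28. LARP1, which binds the 5' end of ribosomal protein mRNAs, had 27 with a median of 0.24. IGF2BP1, an mRNA-stabilizing RNA-binding protein, had 31 with a median of 0.04 and 16 above 0. SOX11, a transcription factor, had 32 members with a median of 0.27, whereas its 5 seeded peaks had a median of 1.64.

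Among the 148 genes with at least 8 members, the highest medians belonged to genes of several functions. CD164, a sialomucin, had a median of 2.30 over 9 members, TMBIM6, an endoplasmic reticulum membrane protein that counters cell death, 2.02 over 10, and INSIG1, a sterol-dependent retention protein of the same membrane, 2.003 over 9. The histone methyltransferase gene MLL (now KMT2A) had 1.93 over 8, all between 1.34 and 2.14, the narrowest range of these 5 genes. DCP2, the mRNA decapping enzyme, had 1.86 over 9. The seeded peaks of all 5 had lower medians than their members, at 1.61 for CD164, 1.34 for TMBIM6, 1.51 for INSIG1, 1.603 for MLL and 1.22 for DCP2. The 5 were picked for high member medians, a choice that by itself favours lower seeded medians. The lowest medians belonged to MRPS25, a mitochondrial ribosomal protein, with -0.97 over 11 members, MAFK, a small Maf transcription factor, with -0.93 over 10, NAT8L, FBXL19, an F-box protein, with -0.88 over 18, and PDDC1 (now GATD1) with -0.84 over 11. Each of these still had at least 1 member above 0, with highest values from 0.34 in FBXL19 to 1.07 in NAT8L. Their seeded medians were higher than their member medians, at -0.01 for MAFK, -0.72 for NAT8L, 0.50 for FBXL19 and -0.30 for PDDC1. MRPS25 had no seeded 3'UTR peak. Picking genes for low member medians likewise favours that order. The widest ranges were found in CELF1, an RNA-binding protein that promotes decay and alternative splicing, from -2.62 to 2.10 over 26 members, MDM2, the ubiquitin ligase of p53, from -1.42 to 3.17 over 12, and NPTX1, a neuronal pentraxin, from -1.95 to 2.62 over 25.

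**Figure D4:**
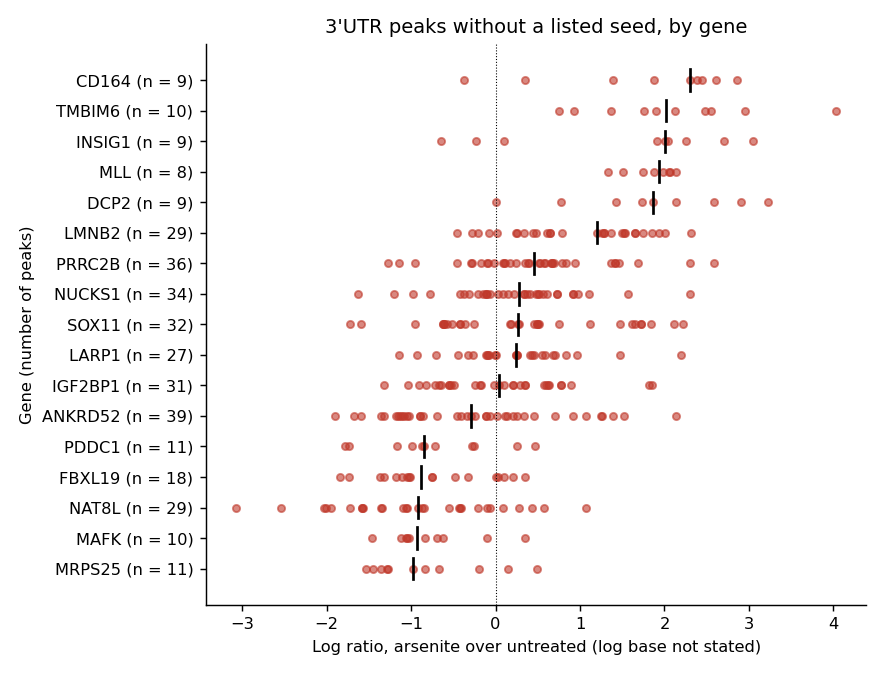
Log ratios of arsenite over untreated (horizontal axis, log base not stated) of every member peak (points) of the 8 genes with most members and of the genes with the 5 highest and 5 lowest medians among genes with at least 8 members. Bars mark gene medians, from 2.30 in CD164 to -0.97 in MRPS25, and most genes have members on both sides of 0.

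In some genes the medians of seedless and seeded peaks lay far apart, in either order. Among the 257 genes with 3 or more of each kind, members lay farthest below seeded peaks in ABL2, a tyrosine kinase gene, with a median of -1.08 over 3 members beside 1.82 over 5 seeded peaks. MAP1B, a microtubule-associated protein, had 0.59 over 9 members and 2.87 over 3 seeded peaks, which did not overlap in value. ABHD5, a cofactor of triglyceride lipase, had -0.65 beside 1.63, RGMB, a BMP co-receptor, 0.31 beside 2.399, again without overlap, and NFIC, a transcription factor, 1.02 over 9 members beside 3.08. The opposite order was widest in POLR2D, an RNA polymerase II subunit, with 0.61 over 3 members (1.12, 0.61 and 0.31 from 5' to 3') beside -1.55 over 3 seeded peaks. CLN6, an endoplasmic reticulum protein, had -0.51 over 11 members beside -2.26. TMEM64 had 1.78 over 3 members beside 0.07 over 4 seeded peaks, with no overlap, the semaphorin receptor gene PLXNA1 had 1.88 beside 0.58, and the zinc finger gene ZNF264 1.51 over 5 members beside 0.24. Several of these medians rest on 3 peaks, and members overlap one another in most of these genes, among them ABL2, RGMB, POLR2D and TMEM64. In ABL2 the overlapping members had -1.08 and -1.36, and the other, its strongest, had 1.74. In ZNF264 an overlapping pair had the same log ratio, 1.87.

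The highest single members, among the 5653 in the upper 75% of member log averages, came mostly from genes with 1 to 3 members. Such genes are common, since 52.5% of all 3054 genes had only 1 member. By peak they weigh less: of 7537 members, 5933 lay in genes with more than 1 member and 3103 in genes with at least 5. The authors' deposited table gave 4.67 for the linker histone gene HIST1H1D (hg19 chr6:26234477-26234516, minus strand), which has no other member, while its 2 seedless CDS peaks had a median of 1.74. CHCHD10, a mitochondrial intermembrane protein, had 4.36 (chr22:24108062-24108128, minus strand), with its centre 45 nucleotides from that of a seeded peak at 2.97. HSD17B12, a reductase of fatty acid elongation, had 4.07 at 1 member and 2.81 at the other. TOMM6, a subunit of the mitochondrial protein import pore, had 4.06, with a median of 1.26 over its other 2. TMBIM6 had 4.04, SFXN1, a mitochondrial serine carrier, 3.91, and IFNGR2, a chain of the interferon gamma receptor, 3.88. HIF1A, the hypoxia transcription factor, had 3.91 (chr14:62214536-62214573), with a median of 0.66 over its other 4 members, so this value stands for 1 peak and not for its 3'UTR. The histone gene HIST1H3I had 3.87, SCARB2, a lysosomal membrane protein, 3.86 with a median of 3.45 over its other 2 members, ATP5E, a subunit of ATP synthase, 3.86, and S100A11, a calcium-binding protein, 3.72.

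The lowest single members lay in transcripts that were low as a whole in some genes and not in others. In the authors' deposited table NAT8L had -3.07 (chr4:2066489-2066528) and NACC2, a transcriptional repressor, -2.81 (chr9:138902089-138902176, minus strand), with medians of -0.90 over 28 and -0.30 over 14 other members. MSL1, a scaffold of a histone acetyltransferase complex, had -2.77 at 1 member and 1.70 at the other, and its 3 seeded peaks had a median of 1.43. TSFM, a mitochondrial translation factor, had -2.76 at its single member, and its CDS peak had 0.62. C17orf101 (now OGFOD3) had -2.66, with a median of -0.78 over 7 other members. KHNYN, a cofactor of the antiviral protein ZAP, had -2.65, with 10 seedless CDS peaks at a median of -1.26. C1orf216 had -2.64, LSS, the lanosterol synthase, -2.61, HIC2, a transcriptional repressor, -2.55, and UNC5B, a netrin receptor, -2.50. SOCS7, a signalling adaptor, had -2.46, with a median of -0.59 over 16 other members, and ATG13, which starts autophagy, -2.43.

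Members of high log average, some of which are given here, had log ratios on both sides of 0. In the authors' deposited table the Notch target genes HES5 and HES4 had log averages of 0.46 and 0.35 and log ratios of 2.97 and 1.91. MARCH9, a membrane ubiquitin ligase, had 1.20 at its strongest member and a median of -0.15 over its other 2. CFD, complement factor D, had -0.55, with a median of -1.23 over 5 other members. CHAC1, a glutathione-degrading enzyme of the ATF4 response, had 1.10, MYC 1.52 and the linker histone gene HIST1H1E 2.22.

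Gene lists were described with 1 member per gene, the peak with the highest log average. Over all 3054 genes such peaks had a median of 0.91, and 77.6% lay above 0 (79.9% for the strongest peak of any class over 6088 genes), so a list's count above 0 is to be read against that share. Some of the lists below overlap with groups for which earlier results on these peaks were known, so they are no independent evidence. No list was tested. Oxidative and metal response genes stood highest: 11 of 12 lay above 0 and 8 above the overall median, and the list median was 2.02. KEAP1, the sensor that arsenite modifies in the Nrf2 pathway, had 2.31. The glutathione synthesis genes GCLC and GCLM had 2.79 and 2.69. FTL, the ferritin light chain, had -0.80 at a log average of -0.42, the strongest peak of the list. Of the other members NFE2L1, a transcription factor related to Nrf2, had 2.997, the thioredoxin gene TXN 2.29, and the peroxiredoxin genes PRDX3 and PRDX2 2.15 and 1.89. The remaining genes GSR, SLC7A11, SOD1 and SQSTM1 had 1.10, 0.79, 0.78 and 0.31, all but GSR below the overall median of 0.91. Over all members of the gene, however, SLC7A11 had a median of 2.05 (3 members) and NFE2L1 one of 1.71 (4 members). Members of this list had a median of 2.05 over all their 21 peaks and its 12 seeded 3'UTR peaks, most of them in other genes, a median of 1.37. In the 4 genes with both kinds, the median of the members was above that of the seeded peaks in KEAP1 and GCLC and below it in SQSTM1 (0.68 beside 1.73) and PRDX3 (2.20 beside 2.42).

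Ribosomal protein and elongation factor mRNAs, whose 3'UTRs are short, came next, as 28 of 32 lay above 0, around a median of 1.55. RPS10 had 3.27, RPL36 2.38, RPL35 2.31 and RPLP0 2.20. RPL31 was lowest at -0.84 and EEF1D, a subunit of elongation factor 1, had -0.34. In the histone list, which also holds the gene of the histone stem-loop binding protein, SLBP (3.03), 34 of 37 lay above 0, and the median was 1.54. HIST1H3B had 3.17, HIST1H1E 2.22, HIST2H2BE 2.05 and HIST1H3H 0.72. The 3 genes below 0, H2AFX, H1FX and H2AFV, had -0.43, -0.28 and -0.13, although the 14 members of H2AFX had a median of 0.55. Histone genes come in near-identical copies and ribosomal protein genes have many pseudogenes, as HSPA1A and HSPA1B are near-identical too, and how the authors placed reads that fit several copies is not given in the sources used here.

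Genes of the machinery that acts at 3'UTRs stood near the overall level. Among miRNA effector and deadenylation genes, 20 of 22 lay above 0 (median 0.996). LSM14B, a P-body protein, had 0.74, ANKRD52 0.34, and the Argonaute partners TNRC6A and TNRC6C 0.92 and 1.09. DCP2 was highest at 2.91 and EIF2C1 (now AGO1) lowest at -0.23, and EIF2C2, the gene of Ago2 itself, had 0.46 at its single member. Among 3'UTR-binding and stress granule genes, 21 of 24 lay above 0 (median 1.17). YBX1, a cold shock domain protein, had 0.10, CPEB2, a polyadenylation factor, -0.03, ATXN2L, a granule component, 1.12 and the splicing factor gene PTBP1 1.21. CAPRIN1 and G3BP1, core proteins of stress granules, had 2.46 and 1.97, and HNRNPU, a nuclear RNA-binding protein, was lowest at -1.06 at 1 of its 15 members, whose median was 0.17.

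Stress and growth control lists were near or below the overall level. Of the immediate early genes and other genes with AU-rich elements, 16 of 18 lay above 0 (median 0.89). MYC had 1.52, JUND 0.86, JUNB 0.59 and BTG2, an antiproliferative gene, 0.39. CCND1, cyclin D1, had -1.05, and the median of its 12 members was -0.27 beside 1.19 over 8 seeded peaks. Integrated stress and unfolded protein response genes lay above 0 in 10 of 12 cases (median 0.81). VLDLR, a lipoprotein receptor, had 2.19, CHAC1 1.10, DDIT4, an mTOR inhibitor, 0.92 and the transcription factor gene CEBPB 0.34. EIF2AK3, the PERK kinase, was highest at 3.01 and TRIB3, a pseudokinase, lowest at -0.97. Heat shock and chaperone genes lay above 0 in 12 of 15 cases (median 0.72), and HSPA1B had 1.85, DNAJB9 1.13, DNAJC5 0.60 and DNAJB1 0.48. The 13 members of DNAJC5 had a median of -0.36. Endoplasmic reticulum and secretory pathway genes lay above 0 in 16 of 22 cases, or 72.7% (median 0.99). The cargo receptor gene LMAN2 had -0.17, TMED4 -0.42, KDELR1, a retrieval receptor, 0.65 and DDOST, an oligosaccharyltransferase subunit, 0.24, while TMED10 reached 2.78. Of the cell cycle regulators 18 of 23 lay above 0 (median 0.48). The CDK inhibitor genes CDKN1B and CDKN1A had 1.03 and -0.13, E2F1 0.48 and CCND3, cyclin D3, 1.69. The median over all 99 seedless peaks of this list was 0.63, beside 1.06 over its 67 seeded peaks. Homeobox genes had the lowest median, 0.44, although 13 of 16 lay above 0. HOXA10 had 1.87, HOXA7 1.52, HOXA5 1.02 and HOXA3 0.33, while HOXB4 had -0.84.

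**Figure D5:**
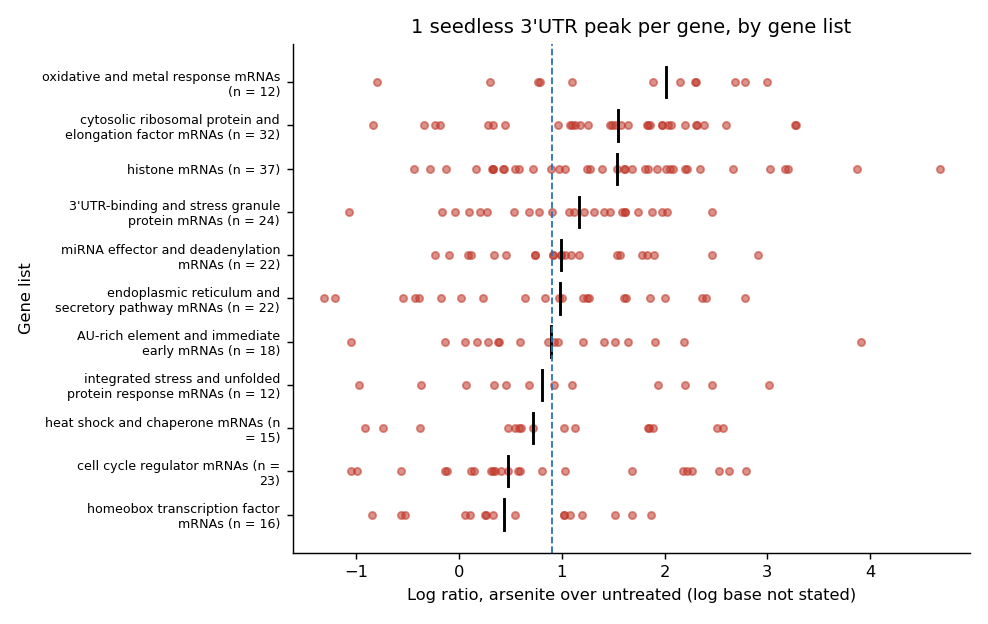
Log ratio of arsenite over untreated (horizontal axis, log base not stated) of the strongest member of each gene (points), by gene list, with list medians as bars. The dashed line is the median of 0.91 over all 3054 genes: the oxidative and metal list stands highest at 2.02 and the homeobox list lowest at 0.44, with broad overlap.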

How the data were processed

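The 24 samples fall into 6 groups of 4 by their titles. Per the submitters' processing notes, Bowtie 0.12.8, TopHat, DESeq and build hg19 were used, with no role named. Which program called the peaks, with which filters, normalizer and log base, is not stated. Per the file headers, the deposited peak table lists normalized CLIP abundance as a log average plus a log ratio. The miRNA table (miRBase 18 names) gives the authors' signal means per treatment, that is size-factor-scaled counts, with their ratio (fold), its log2 value, and the authors' deposited p-values from DESeq. The 2 tables hold 0 columns of single samples, so the planned replicate tests could not be run and everything here is descriptive. The spread between replicates is unknown and limits precision, and depth per sample is not in the tables used.

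Peaks were selected, grouped and summarised with pandas 2.3.3 in Python 3.11.15, and the script was tested on simulated shifts. Length is end minus start plus 1, coordinates are as deposited, with no stated base for starts. Planned motif counts were not made, since no genome of build hg19 was used. Seeds come from RefSeq mature miRNAs. Member symbols matched RefSeq for 2800 of 3054 genes, 242 more through a synonym. Named genes followed a rule: the 12 highest and 12 lowest log ratios and 8 highest log averages (1 per gene, upper 75% of member log averages), the 8 genes with most members, the 5 largest differences each way from seeded peaks (3 or more of each), the 5 highest and 5 lowest medians and 3 widest ranges (8 or more members), and 4 genes of highest log average per list. 1 gene that this rule names by its log average is not reported here. Other list members were named after their values were seen. The members and lists were chosen with earlier results of these data known. Length classes, abundance ranks, position, chromosomes and symbol groups were added after the values had been seen. Alternatives covered weak peaks, 1 value per gene, overlap, length, genes with many peaks and matching on log average.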

Additional observations from a re-analysis of the deposited data

How the results depend on the processing

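The difference of members from seeded 3'UTR peaks, from seedless CDS peaks and from seedless 5'UTR peaks, and the difference within genes from seeded peaks, kept their direction under all alternatives run. Of 61 alternative values, 47 lay within the interval of the reported value, 14 lay outside it and 0 changed sign. The intervals were over peaks, or over genes for the within-gene difference. Those of differences between groups of peaks joined the limits of a separate interval for each group. That makes them wider than an interval of the difference from the same peaks, so the 47 can overstate stability. The intervals of the list medians are wide, so their alternatives say little about stability. With 1 peak per gene the member median was 0.91, the share above 0 was 77.6% and the difference from 5'UTR peaks 0.66. With the median over each gene first these were 0.84, 79.5% and 0.60. Without overlapping peaks the member median was 0.78, the share above 0 was 74.1% and the within-gene difference from seeded peaks -0.37. In genes with at most 20 peaks the median was 0.77 and the share 74.7%. In the upper 50% of log averages they were 0.56 and 68.4%, and the within-gene difference was -0.22. Matching on log average gave -0.52 for the difference from seeded peaks, and matching on length class, added later, -0.49. The cause of these shifts was not tested. No paired analysis was possible because the tables hold no column of a single replicate, and the fits that leave out a replicate and the motif windows were not run for lack of replicate columns and of a genome. Without replicates, differences between single peaks cannot be set against experimental error.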

Other observations

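Members on different chromosomes had different medians. Chromosomes 22 and 16 had the lowest, 0.27 over 203 members in 72 genes and 0.39 over 287 in 121 genes. Chromosomes 6 and 13 had the highest, 1.21 over 342 members in 168 genes and 1.09 over 111 in 51 genes. Without the histone genes chromosome 6 had 1.15 over 315 members. With the median over each gene first, the values were 0.47 for chromosome 22, 0.43 for 16, 1.34 for 6 and 1.32 for 13. Seeded 3'UTR peaks had medians of 0.54 on chromosome 22, 1.20 on 16, 1.42 on 6 and 1.81 on 13.

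Of all 16 symbol stems that at least 15 genes with a member share, RPL genes had the highest median at their strongest member, 1.86, with 14 of 17 above 0, followed by HIST genes with 1.61 and all 30 above 0. ATP genes, which include ATPases and subunits of ATP synthase, had 1.33 with 20 of 22 above 0, and RNF genes, which encode RING finger proteins, 1.25 with 19 of 21. ZNF zinc finger genes stood at 0.95 over 69 genes and SLC transporter genes at 1.00 over 50, beside 0.91 over all genes. RAB genes, small GTPases of vesicle traffic, had the lowest median, 0.53 over 16 genes, with 12 above 0 and 4 above the overall median.

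Several spliced or overlapping peaks repeat the same values. In all, 563 peaks had the same log average and log ratio as another peak of their gene. Of these, 179 were members (2.37%), so that counts of peaks slightly exceed counts of separate measurements.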
